A study of Homo sapiens with 8 samples.

Results

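The oxygen-sensing pathway was followed through 9 genes: the hypoxia-inducible factor subunits EPAS1 (HIF-2 alpha), HIF1A (HIF-1 alpha), ARNT (HIF-1 beta) and ARNT2, the prolyl hydroxylases EGLN1, EGLN2 and EGLN3, the asparaginyl hydroxylase HIF1AN, and VHL. They were chosen by name, and their RefSeq transcript entries, 15 in all, were summed per current gene symbol in each library. They were 9 of the 22678 symbols in the tables. All 9 lay above 1 FPKM (fragments scaled to transcript length and to the number of mapped reads) in all 8 libraries and were among the 11367 genes tested.

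RNA-seq was done on A498 and 786-O, cell lines derived from clear cell renal cell carcinoma (ccRCC). For each line there were 2 libraries transfected with non-targeting control siRNA (NTC), 1 with SLINKY siRNA 1 and 1 with SLINKY siRNA 2, where SLINKY is a long intergenic non-coding RNA. All siRNAs were used at 50 nM for 16 hr according to the labels, and the study's methods give the same for the SLINKY siRNAs. RNA was isolated at a later time than these 16 hr, according to the methods. The labels call all siRNAs pools, whereas the methods describe individual SLINKY siRNAs. A498 cells were grown in DMEM and 786-O cells in RPMI-1640, so line and medium cannot be told apart, and each line is a single culture lineage that is known to lack functional VHL protein. The study's methods describe separate transfections for the siRNAs, but nothing states that the NTC libraries came from separate cultures, so p-values measure only the spread between these libraries. In bulk RNA, fewer cells with a transcript and less transcript per cell cannot be told apart.

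SLINKY was at 14.6 and 16.1 FPKM in the A498 NTC libraries and at 1.64 and 3.01 FPKM with the siRNAs. The 786-O NTC libraries held it at 1.45 and 1.39 FPKM and the siRNA libraries at 0.0569 and 0.594 FPKM. The estimated depth was 25071231 to 64537776 mapped reads per library. The kidney lineage genes PAX8 (39.2 to 42.9 FPKM in A498 and 41.9 to 48.1 FPKM in 786-O) and LHX1 were present in both lines, while EMX2 and CUBN did not exceed 0.0577 FPKM. MME was at 0.340 to 0.441 FPKM in A498 and 1.29 to 1.38 FPKM in 786-O, below the filter. Of 7 kidney markers tested 4 were higher and 3 lower in A498, where 80.5% of all genes tested were called, and the call of PAX2, one of the higher, was lost with the highest entry alone (limma adjusted p = 0.070) and in the NTC libraries alone (limma adjusted p = 0.097). The 8 markers of leukocytes, endothelium, erythroid cells and liver did not exceed 0.188 FPKM.

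HIF is a dimer of an oxygen-regulated alpha subunit and a stable beta subunit. When oxygen is present the EGLN enzymes hydroxylate prolines of the alpha subunit, VHL binds the hydroxylated protein within a ubiquitin ligase, and the proteasome degrades it. HIF1AN hydroxylates an asparagine in the alpha subunit, which blocks binding of co-activators. Loss of VHL is the defining lesion of most ccRCC, and EGLN3 and, to a lesser degree, EGLN1 are themselves known targets of HIF. All of these steps act on protein, whereas the values here are of RNA.

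The exon shown here is the internal exon by which the GENCODE transcripts HIF1A-202 and HIF1A-201 of HIF1A differ. Their lengths are 3946 and 3555 bases, so the exon is not their only difference. The exon is shown because Cufflinks gave HIF1A reads to full-length entries in A498 and mostly to an entry without it in 786-O. It lies at chr14:62212409-62212535 (GRCh37, plus strand), is coding, has 127 bases and is exon 14 of 15 in the GENCODE transcript HIF1A-202. Capitals mark the exon, and lower case marks the last 20 bases of the exon before it and the first 20 bases of the exon after it.
HIF1A with the exon: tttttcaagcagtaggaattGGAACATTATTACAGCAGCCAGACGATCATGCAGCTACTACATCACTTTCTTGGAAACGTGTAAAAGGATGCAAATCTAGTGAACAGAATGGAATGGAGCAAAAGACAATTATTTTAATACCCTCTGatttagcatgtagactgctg
HIF1A without the exon: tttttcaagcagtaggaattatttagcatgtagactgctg
The annotated coding sequence has 826 residues with the exon and 735 residues in HIF1A-201, which lacks it. Since 127 is not a multiple of 3, skipping the exon shifts the reading frame, and the shorter form lacks the C-terminal activation domain in which HIF1AN acts.

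Between the cell lines, HIF1A RNA showed the widest difference of the 9 genes. HIF1A (chr14:62162119-62214977, hg19) was at 27.1 and 30.7 FPKM in the A498 NTC libraries and at 29.1 and 30.5 FPKM with siRNA 1 and siRNA 2. The 786-O values were 1.56 and 1.78 FPKM in the NTC libraries and 2.06 and 1.86 FPKM with the siRNAs. Every A498 library lay far above every 786-O library, with means of 29.3 ± 1.69 and 1.82 ± 0.204 FPKM (SD, n = 4 each), a ratio of 16.2. On the log2(FPKM + 0.1) scale the difference was 3.95 (SE 0.0686, limma adjusted p = 3.9e-09), larger in size than for 95.8% of the genes tested. About 190 to 385 reads lay behind HIF1A in a 786-O library by an estimate from depth and the length of HIF1A-201. In an A498 library it was about 2868 to 5371 reads, with the length of HIF1A-202.

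The lines also differed in the HIF1A transcript to which Cufflinks gave the reads. In A498 the full-length entries NM_001530 (14.3 to 19.8 FPKM) and NM_001243084 (7.43 to 14.7 FPKM), which begins downstream at chr14:62164340, carried the gene, and NM_181054, the entry that skips the exon shown above, was listed at 0 in all 4 libraries. In 786-O the order was turned, with NM_181054 at 1.56, 1.69, 2.06 and 1.86 FPKM in NTC 1, NTC 2, siRNA 1 and siRNA 2, which was 94.7% to 100% of the gene. NM_001530 was listed at 0 in 3 of the 786-O libraries and at 0.0939 FPKM in NTC 2 (Cufflinks 95% interval 0 to 0.506). The split between the 2 full-length entries was less firm, since the interval of NM_001243084 in A498 NTC 2 ran from 0 to 22.8 FPKM. These are shares assigned by a model to single-end reads of 36 bases, and reads across the junction were not seen here. Whether the RNA of 786-O skips the exon was not tested.

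**Figure D1:**
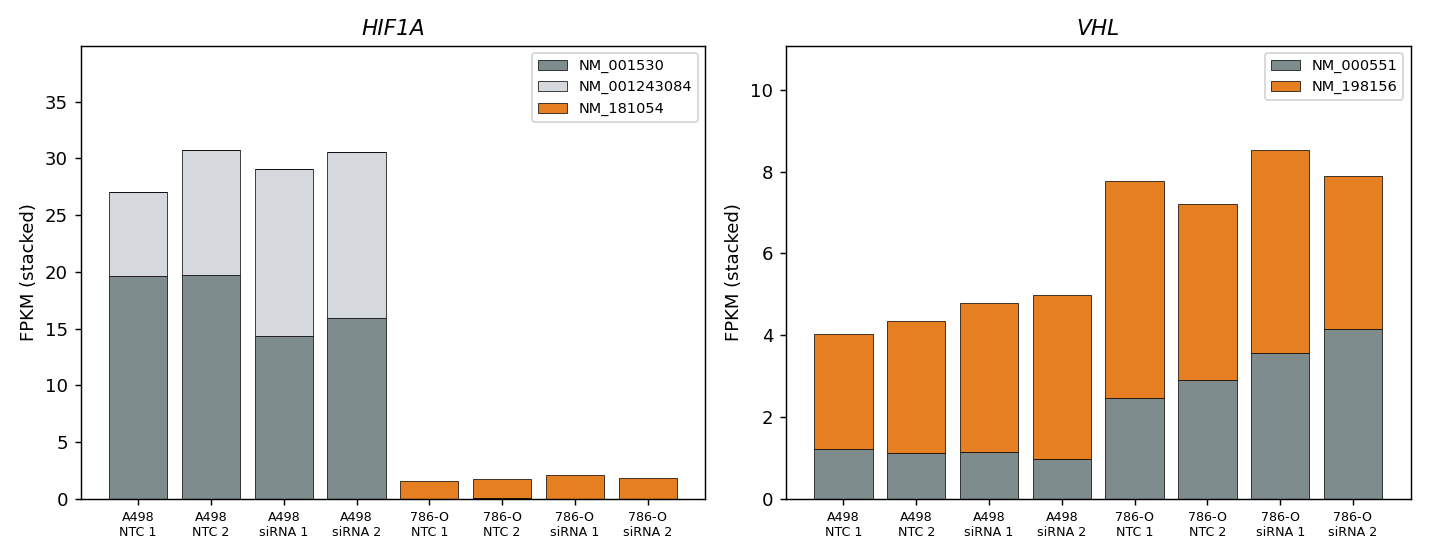
Stacked FPKM of the RefSeq transcripts of HIF1A (left) and VHL (right) in each of the 8 libraries, with orange for the transcript that lacks an internal exon. HIF1A in A498 is built from NM_001530 and NM_001243084 and in 786-O almost wholly from NM_181054, while both VHL transcripts are present in all libraries.

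Other transcripts at the HIF1A locus differed between the lines as well. HIF1A-AS1, a non-coding entry upstream (chr14:62147759-62162541), was at 2.99 to 4.75 FPKM in A498 and 0.129 to 0.429 FPKM in 786-O. HIF1A-AS3 was at 0.331 to 0.550 FPKM in A498 and at 0.00822 to 0.0200 FPKM in 786-O. HIF1A-AS2, which shares 1220 bases with the last exon of HIF1A, was at 24.2 to 32.8 FPKM in A498 and listed at 0 in 786-O, with the Cufflinks status of low data in all 8 libraries. An unnamed non-coding entry across the end of the gene (ENSG00000258964) was at 0.0374 to 2.46 FPKM in A498 and 0.364 to 0.806 FPKM in 786-O, and these ranges overlapped. The library kit does not mark strand, so reads from bases that HIF1A shares with these overlapping entries cannot be told apart. Whether the assignment of reads to HIF1A-AS2 affected the split between the HIF1A transcripts was not tested. The protein-coding neighbours PRKCH and SNAPC1, picked after the locus had been seen, were also higher in A498, SNAPC1 at 9.14 to 10.6 against 1.85 to 3.14 FPKM (log2 difference 1.94, SE 0.141, limma adjusted p = 6e-06) and PRKCH at 1.63 to 2.06 against 1.12 to 1.21 FPKM (log2 difference 0.59, SE 0.0784, limma adjusted p = 0.00021).

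EPAS1, the HIF-2 alpha subunit regarded as the main oncogenic HIF in ccRCC, differed far less. EPAS1 (chr2:46524541-46613842) was at 9.44 and 9.63 FPKM in the A498 NTC libraries and at 10.2 and 10.3 FPKM with the siRNAs. In 786-O it was at 7.25 and 7.44 FPKM in the NTC libraries and at 6.997 and 8.15 FPKM with the siRNAs. The lines did not overlap, and the log2 difference was 0.40 (SE 0.0503, limma adjusted p = 0.00014), larger in size than for 41.0% of the genes tested. The ratio of EPAS1 to HIF1A within a library was 0.337 ± 0.0173 in A498 and 4.15 ± 0.532 in 786-O (SD, n = 4 each), so HIF1A was the more abundant alpha subunit RNA per length in A498 and EPAS1 in 786-O.

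The beta subunits were the least abundant of the 9 genes in A498. ARNT (chr1:150782181-150849244), the general partner of both alpha subunits, was at 1.57, 1.71, 1.40 and 1.73 FPKM in A498 NTC 1, NTC 2, siRNA 1 and siRNA 2. The 786-O values were 3.30, 3.16, 2.68 and 3.43 FPKM in the same order, and each of these values exceeded each A498 value. The log2 difference was -0.93 (SE 0.0964, limma adjusted p = 4.9e-05). Cufflinks marked the estimates of all 3 ARNT transcripts as failed in A498 NTC 1, A498 siRNA 2 and 786-O siRNA 1, and with these taken as missing, which drops 3 of the 8 libraries, the difference was -1.03 (limma adjusted p = 0.00085). ARNT2 (chr15:80696692-80890277), a close relative known best from neural tissue, was at 1.56 to 1.77 FPKM in A498 and 1.35 to 1.47 FPKM in 786-O. Its log2 difference of 0.20 (SE 0.0665, limma adjusted p = 0.026) was the smallest of the 9 and lost the call without A498 NTC 2 (limma adjusted p = 0.051), without 786-O NTC 2 (limma adjusted p = 0.061) and in the NTC libraries alone (limma adjusted p = 0.099).

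All 3 prolyl hydroxylase genes were higher in A498, EGLN3 by the widest margin. EGLN3 (chr14:34393421-34420284), the member of the family most strongly induced by hypoxia, was at 50.4 and 56.3 FPKM in the A498 NTC libraries and at 53.1 and 52.6 FPKM with the siRNAs. Its 786-O values were 17.2 and 16.5 FPKM in the NTC libraries and 14.5 and 15.4 FPKM with the siRNAs, a ratio of 3.34 between the line means and a log2 difference of 1.74 (SE 0.0524, limma adjusted p = 5e-08). That difference was larger in size than for 87.4% of the genes tested.

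EGLN1 (chr1:231499497-231560790), the principal oxygen sensor, was at 8.91, 9.80, 9.54 and 10.1 FPKM in A498 NTC 1, NTC 2, siRNA 1 and siRNA 2 and at 6.50, 6.05, 6.48 and 5.72 FPKM in 786-O. The log2 difference was 0.62 (SE 0.0581, limma adjusted p = 2.6e-05). EGLN2 (chr19:41305048-41314346), which is not regarded as a hypoxia target, was at 46.4, 43.2, 40.4 and 38.9 FPKM in A498 and at 33.1, 36.1, 30.7 and 29.9 FPKM in 786-O in the same order. Its log2 difference was 0.38 (SE 0.0411, limma adjusted p = 6.2e-05), and neither gene overlapped between the lines. The transcript NM_080732 held 97.4% to 100% of EGLN2, and the readthrough entry RAB4B-EGLN2 was listed at 0 throughout. EGLN3 exceeded EGLN2 in each A498 library (ratio 1.26 ± 0.120) and was below it in each 786-O library (ratio 0.491 ± 0.0310, SD, n = 4 each).

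The core of the hypoxia response element, searched as ACGTG on both strands in the 250 bases before each RefSeq start (GRCh38.p14), was found in 2 of the 9 windows of the 7 members with a promoter entry. ACGTG occurred in 18.5% of all such windows. Both matches were in EGLN genes and are shown with 30 bases each, the letters of the match in capitals. The EGLN2 match reads CACGTG and so holds ACGTG on both strands.
EGLN1, chr1:231422288-231422317, minus strand: ccgcggggccgtggtgtACGTGcagagcgc
EGLN2, chr19:40799130-40799159, plus strand: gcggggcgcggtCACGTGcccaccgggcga
The EGLN1 window lies inside the longer EGLN1 transcript of the deposited tables. These letters were not in the EGLN3 window. The alternative core GCGTG, found in 32.2% of all windows, was present for EPAS1 and for the first HIF1A start.

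HIF1AN (chr10:102295641-102313681), also called factor inhibiting HIF, was at 8.06, 7.86, 8.60 and 8.30 FPKM in A498 NTC 1, NTC 2, siRNA 1 and siRNA 2. In 786-O it was at 6.74, 6.69, 7.12 and 6.70 FPKM in the same order. The ranges did not overlap, and the log2 difference was 0.26 (SE 0.0345, limma adjusted p = 0.00019).

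VHL, the substrate receptor of the ligase, was with ARNT the only member lower in A498. VHL (chr3:10183319-10195354) was at 4.03 and 4.34 FPKM in the A498 NTC libraries and at 4.78 and 4.98 FPKM with the siRNAs. In 786-O it was at 7.77 and 7.20 FPKM in the NTC libraries and at 8.52 and 7.88 FPKM with the siRNAs. Each 786-O library lay above each A498 library, with a log2 difference of -0.78 (SE 0.0484, limma adjusted p = 2.4e-06) and 1.73 times the FPKM. The full-length transcript NM_000551 was at 0.975 to 1.23 FPKM in A498 and 2.47 to 4.14 FPKM in 786-O, 2.92 times higher by the line means. NM_198156, which lacks the second of 3 exons (123 bases, 172 in place of 213 residues), was at 2.80 to 4.004 FPKM in A498 and 3.74 to 5.30 FPKM in 786-O. It held 69.5% to 80.4% of VHL in A498 and 47.5% to 68.2% in 786-O, ranges that did not overlap. In the NTC libraries alone the shares lay closer, at 69.5% and 74.4% in A498 and 68.2% and 59.8% in 786-O. These shares are assigned by a model, and their difference between the lines was not tested. With only the higher entry of each library the log2 difference was -0.45 (limma adjusted p = 0.011). RNA levels say nothing of whether the product is functional.

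**Figure D2:**
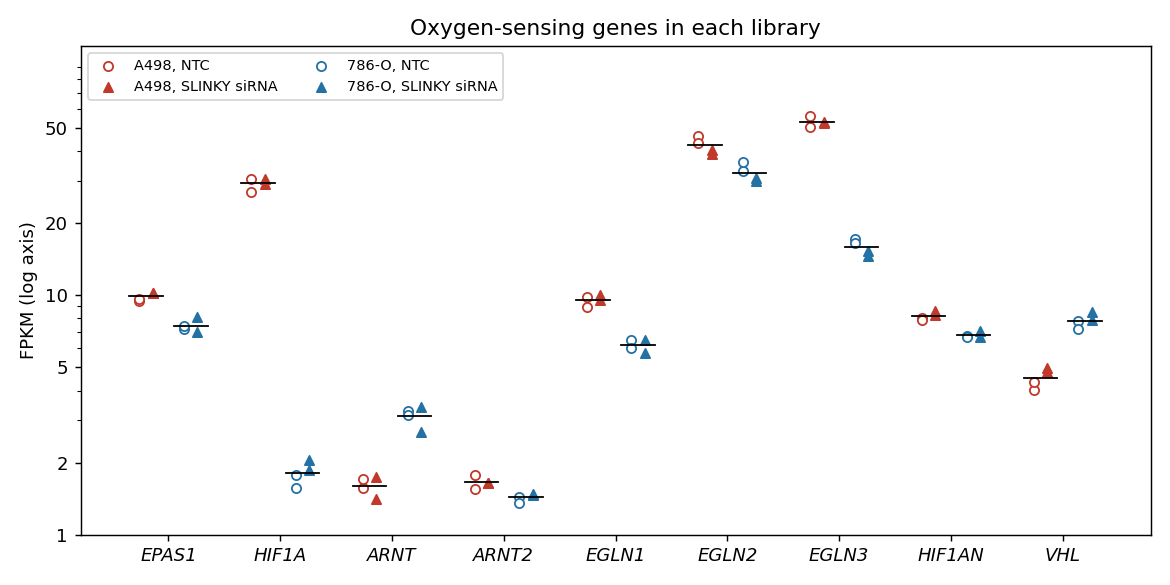
FPKM on a log axis of the 9 genes in each library, with open circles for NTC, filled triangles for SLINKY siRNAs, red for A498, blue for 786-O and a bar at the mean of the 4 libraries of a line. HIF1A separates the lines by a factor of 16.2 and EGLN3 by 3.34, and ARNT and VHL are the only genes that are higher in 786-O.

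In all, 9 of the 9 genes differed between A498 and 786-O, 7 higher and 2 lower in A498. This stood against a background in which 80.5% of all genes tested were called, 39.1% higher and 41.4% lower. The libraries of the lines did not overlap for 9 of 9 members and for 75.5% of genes tested. A call as such was therefore the common case between these lines, and the sizes of the differences say more than the count. The median size over the 9 genes was 0.62 on the log2 scale, against 0.51 over all genes tested. Direction held for the 9 genes under every alternative run.

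The order of levels per transcript length differed between the lines. In A498 the order by mean was EGLN3, EGLN2, HIF1A, EPAS1, EGLN1, HIF1AN, VHL, ARNT2 and ARNT, where the ranges of EPAS1 and EGLN1 overlapped, as did those of ARNT2 and ARNT. The 786-O order was EGLN2, EGLN3, VHL, EPAS1, HIF1AN, EGLN1, ARNT, HIF1A and ARNT2, where VHL overlapped with EPAS1 and EPAS1 with HIF1AN. HIF1A stood above 75.3% of tested genes by mean level in A498 and above 14.9% in 786-O.

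SLINKY knockdown left the 9 genes without a call. Over both lines 0 of 9 passed limma at an adjusted p of 0.05, where 1 gene (0.0088% of those tested) did, and 2 of 9 had an unadjusted p under 0.05, as had 11.5% of all genes. In A498 0 of 9 were called (background 0.176%) and 1 of 9 had an unadjusted p under 0.05 (background 4.3%). In 786-O 0 of 9 were called (background 0.141%) and 2 of 9, EGLN2 and EGLN3, had an unadjusted p under 0.05 (background 4.21%). In the interaction of knockdown and line 0 of 9 were called (background 0.141%) and 0 of 9 had an unadjusted p under 0.05 (background 1.93%). With 2 libraries a group, a small change could have been missed. The 2 knockdown libraries of a line held different siRNAs but were treated as replicates. Differences between the siRNAs are thus part of the spread behind every knockdown p-value, SE and interval.

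EGLN2 and VHL were the 2 members with an unadjusted p under 0.05 over both lines. For EGLN2 both knockdown libraries lay below both NTC libraries in each line, which held for 4.89% of genes tested. Its log2 difference of knockdown from NTC was -0.18 (SE 0.0411, limma adjusted p = 0.33, unadjusted 0.0028, lower in 4 of 4 knockdown libraries). For VHL both knockdown libraries lay above both NTC libraries in each line, which held for 6.56% of genes tested. Its log2 difference was 0.17 (SE 0.0484, limma adjusted p = 0.36, unadjusted 0.0085, higher in 4 of 4 knockdown libraries).

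The transcripts of VHL did not all follow the sum under knockdown. In 786-O, NM_000551 was at 2.47 and 2.90 FPKM in the NTC libraries (Cufflinks 95% intervals 2.15 to 2.79 and 2.64 to 3.15) and at 3.56 and 4.14 FPKM with the siRNAs (3.19 to 3.94 and 3.80 to 4.49). NM_198156 was at 5.30 and 4.304 FPKM in the NTC libraries and at 4.95 and 3.74 FPKM with the siRNAs in the same line, so that its groups overlapped. In A498 the pattern differed, with NM_198156 at 2.80 and 3.23 FPKM in NTC and 3.62 and 4.004 FPKM with the siRNAs, and NM_000551 at 1.23 and 1.11 FPKM in NTC and 1.15 and 0.975 FPKM with the siRNAs, which overlapped. With only the higher entry of each library, which was NM_000551 in 786-O siRNA 2 and NM_198156 in the other libraries, the VHL difference in 786-O was -0.08 on the log2 scale, against 0.13 for the sum. The intervals cover the estimate of 1 library, not the spread between libraries, and no test was made on transcripts.

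By the sum of their entries, the HIF alpha subunits gave small and uncertain differences under knockdown. EPAS1 differed from NTC by 0.07 on the log2 scale over both lines (95% interval -0.05 to 0.19, limma adjusted p = 0.59) and HIF1A by 0.13 (-0.03 to 0.29, limma adjusted p = 0.49). For EGLN3 the difference was -0.09 (-0.21 to 0.03), for EGLN1 0.01 (-0.12 to 0.15), for HIF1AN 0.06 (-0.02 to 0.14), for ARNT2 0.03 (-0.13 to 0.19) and for ARNT -0.08 (-0.30 to 0.15). The ARNT value joins siRNAs that differed in direction in both lines. Against the NTC mean, ARNT was 0.866-fold in A498 and 0.834-fold in 786-O with siRNA 1. With siRNA 2 it was 1.06-fold in each line. The intervals over both lines are unadjusted for multiple tests, and each lay between 20% below and 25% above the NTC level. Within a line the intervals were wider, and some ran past these bounds. In 786-O, for example, they ran from 0.941-fold to 1.44-fold for HIF1A and from 0.699-fold to 1.26-fold for ARNT. Changes of that size within a line are therefore not excluded. The 2 full-length HIF1A entries moved in opposite directions in A498. NM_001243084 was at 7.43 and 10.9 FPKM in NTC and at 14.7 and 14.6 FPKM with the siRNAs. NM_001530 was at 19.6 and 19.8 FPKM in NTC and at 14.3 and 15.9 FPKM with the siRNAs. The split between these entries was uncertain in NTC 2, as given above, and was not tested.

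No member passed the study's fold threshold, which is 25% above or 20% below control, with a single siRNA against the mean of the NTC libraries. Past that threshold were 5.58% of genes tested with siRNA 1 and 7.43% with siRNA 2 in A498, and 7.73% with siRNA 1 and 5.82% with siRNA 2 in 786-O. The largest member values were HIF1A with siRNA 1 in 786-O, 1.22-fold, and ARNT with siRNA 1 in the same line, 0.834-fold in a library where its estimate had failed. Against the NTC library of its own number alone, HIF1A with siRNA 1 in 786-O was at 1.297-fold. There is 1 library per siRNA and line, so no test applies.

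**Figure D3:**
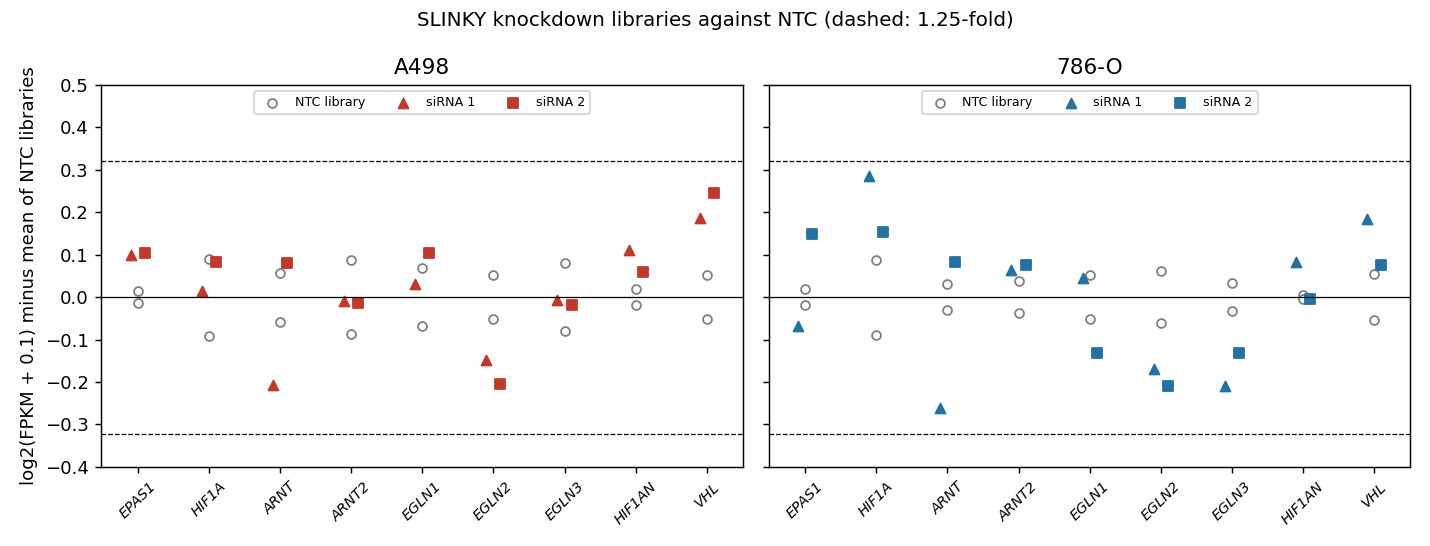
Each knockdown library minus the mean of the NTC libraries of its line on the log2(FPKM + 0.1) scale for the 9 genes, in A498 (left) and 786-O (right), with open circles for the NTC libraries and dashed lines at the study's fold threshold (25% above and 20% below). No point is past the dashed lines, both EGLN2 points are below and both VHL points above the NTC libraries in each line, and HIF1A with siRNA 1 in 786-O comes nearest to the upper line at 1.22-fold.

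The lists of pathway genes are set against the 80.5% of all genes tested that were called between the lines, 39.1% higher and 41.4% lower in A498, and counts near these shares are no result about a list. In these lists and the kidney markers together 62 of 70 genes tested were called. Of the 70, 4 were under 1 FPKM by mean in 1 of the lines and passed the filter through the other, so that a difference was built into their selection. They were CITED4, NPAS2 and LOX, which passed through A498, and PDK1, which passed through 786-O, and LOX is named only for this, after its values were seen. Of 10 partners of VHL in the ligase and its neddylation, 4 were higher in A498 and 5 lower (background 39.1% and 41.4%), with a median of -0.12 on the log2 scale against -0.02 over all genes tested. UBE2M, the NEDD8-conjugating enzyme, was at 85.5 to 96.8 FPKM in A498 and 43.7 to 53.8 in 786-O (log2 difference 0.91). The RING subunit RBX1 was lower in A498, at 94.0 to 99.6 against 139 to 158 FPKM (log2 difference -0.59), as was the ubiquitin-conjugating enzyme UBE2D2 (log2 difference -0.77). ELOB, a subunit of the elongin adaptor, was higher by 0.43.

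Of 12 other regulators of the alpha subunits, 6 were higher and 6 lower in A498 (background 39.1% and 41.4%), with a median of -0.00028 on the log2 scale. The ubiquitin ligase MDM2 was at 16.0 to 18.3 FPKM in A498 and 3.96 to 5.04 in 786-O (log2 difference 1.91). SIAH2, a ligase for prolyl hydroxylases including EGLN3, was lower in A498 at 8.94 to 9.55 against 17.5 to 18.8 FPKM (log2 difference -0.97). FBXW7, a receptor of another ubiquitin ligase, was higher by 0.62, a call lost with the highest entry alone (0.51, limma adjusted p = 0.10).

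Of 10 co-activators and co-repressors, 7 were tested, 2 were higher and 2 lower (background 39.1% and 41.4%), with a median of -0.05. CITED4, a relative of CITED2, was higher in A498 (log2 difference 2.39) and CITED2, which competes with HIF for its co-activators, was lower (log2 difference -0.48). HDAC7 was lower (log2 difference -0.65) and the acetyltransferase CREBBP higher (0.32). Of 12 other factors of the bHLH-PAS family, to which HIF belongs, 5 were tested and all 5 were called (background 80.5%), 3 higher and 2 lower, with a median of 0.86. NPAS2 was at 9.59 to 10.7 FPKM in A498 and 0.496 to 0.575 in 786-O (log2 difference 3.998), and its partner in the circadian clock BMAL1 was also higher (1.68). AHR, the dioxin receptor and another partner of ARNT, was higher (log2 difference 0.86) and BMAL2 lower (-0.81). HIF3A, the third alpha subunit, did not exceed 0.0181 FPKM in either line.

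Of 16 other 2-oxoglutarate oxygenases, the enzyme class of EGLN and HIF1AN, 14 were tested, 8 were higher and 4 lower in A498 (background 39.1% and 41.4%), with a median of 0.19. ASPH, an aspartyl hydroxylase, was at 385 to 453 FPKM in A498 and 130 to 150 in 786-O (log2 difference 1.60), and RIOX2, a ribosomal histidine hydroxylase, was lower in A498 (-1.26). The histone demethylases KDM6A (log2 difference 0.89) and KDM4C (0.77) were higher.

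Of 18 HIF target genes, 15 were tested, 8 were higher and 5 lower in A498 (background 39.1% and 41.4%), with a median of 0.21. ANGPTL4 was at 60.9 to 87.2 FPKM in A498 and 7.75 to 16.0 in 786-O (log2 difference 2.88), NDRG1 at 196 to 231 against 52.5 to 70.1 FPKM (1.78) and the carbonic anhydrase CA12 at 76.6 to 105 against 27.3 to 39.2 FPKM (1.43). PDK1, a kinase that restrains pyruvate dehydrogenase, went the other way at 0.797 to 0.921 in A498 and 2.30 to 2.44 FPKM in 786-O (log2 difference -1.38). CA9, a classic HIF-1 target, was below the filter at 0.293 to 0.559 FPKM in A498 and 0 to 0.0229 in 786-O. Under knockdown 0 genes of these lists and of the kidney markers were called by limma over both lines, in either line or in the interaction. Of the 70 tested, 10 had an unadjusted p under 0.05 over both lines (background 11.5%), 3 in A498 (4.3%), 1 in 786-O (4.21%) and 1 in the interaction (1.93%).

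**Figure D4:**
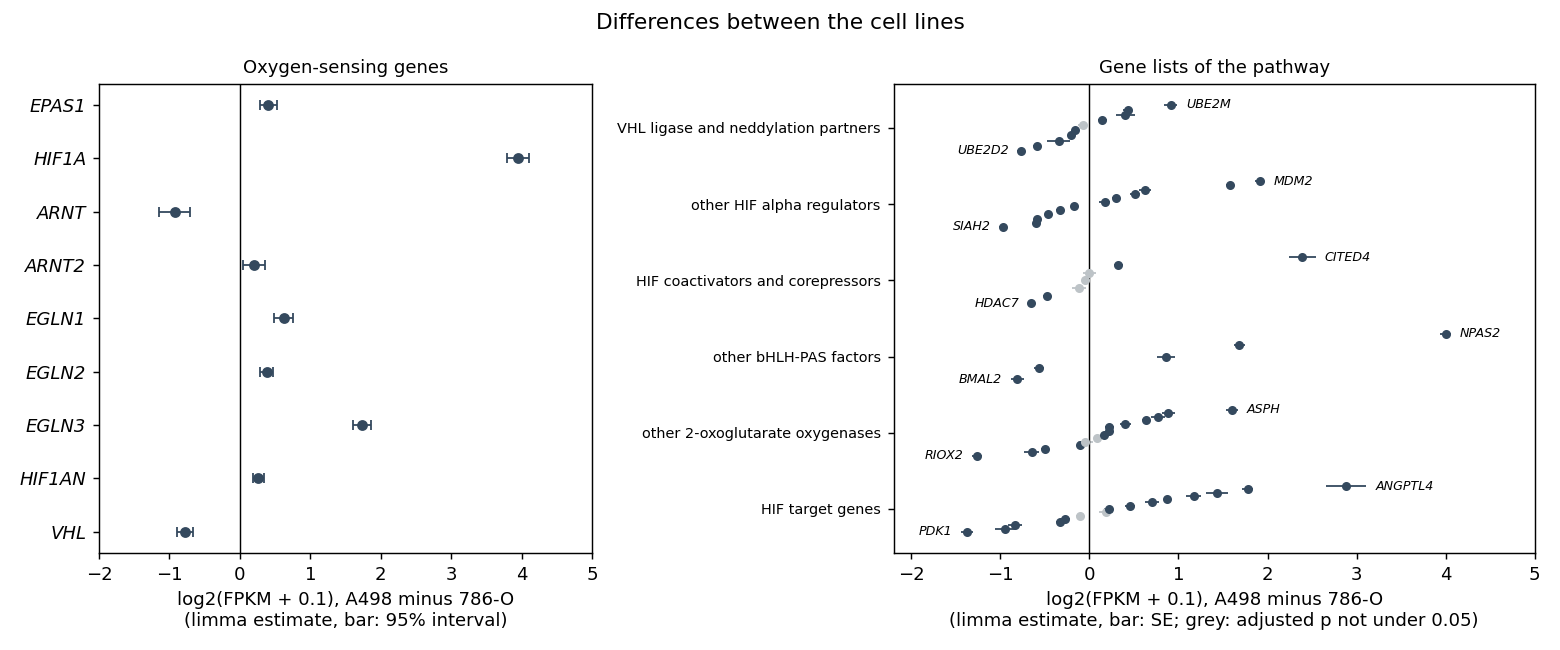
Difference of A498 from 786-O on the log2(FPKM + 0.1) scale for the 9 genes with 95% intervals (left) and for the tested genes of 6 pathway lists with SE (right), where grey points did not pass an adjusted p of 0.05. HIF1A at 3.95 and NPAS2 at 3.998 stand farthest to the right, where NPAS2 passed the filter through A498 alone, and every list has genes on both sides of 0.

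By the root mean square difference of mean-centred log2(FPKM + 0.1) over the 8 libraries, a distance set mainly by the contrast of the lines, the genes nearest to HIF1A were KYNU (0.0754), GBP4 (0.0847) and CERKL (0.0868). Those nearest to EGLN3 were KCNK1 (0.0524), TCF7 (0.0613) and GSTM4 (0.0665). VHL was nearest to PACRGL (0.0353), SMCHD1 (0.0442) and C5orf22 (0.0451), and EPAS1 to TAF9 (0.0299), GOSR1 (0.0368) and MCU (0.0421). KYNU, for example, was at 99.6 to 109 FPKM in A498 and 6.48 to 8.02 in 786-O. GBP4 was at 2.54 to 2.99 FPKM in A498 and 0.0741 to 0.110 in 786-O. CERKL was at 1.99 to 2.26 FPKM in A498 and 0.0269 to 0.0555 in 786-O. Both GBP4 and CERKL passed the filter through A498 alone. Their 786-O values lay near or below the pseudocount of 0.1, so their distances to HIF1A depend on it.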

How the data were processed

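The authors sequenced TruSeq libraries as single-end 36 bp reads and deposited, for each library, FPKM values with 95% intervals, computed on hg19 with TopHat2 2.0.0 and Cufflinks 2.0.2 according to the submitters' processing notes. Options and scaling between libraries are not given in the sources used here. RefSeq entries were named from a GRCh38 gene table (96.6% matched), used for names only, and summed per symbol.

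Genes with a mean of at least 1 FPKM were tested on log2(FPKM + 0.1), which understates changes of low genes, with limma 3.58.1 in R 4.3.3 (variance trend, Benjamini-Hochberg, threshold 0.05). The line comparison used 8 libraries with knockdown as a covariate, the knockdown comparison 8 libraries with line as a covariate, or the 4 libraries of a line, and the interaction 4 group means. The script was tested on simulated data. Depth was estimated from olfactory receptor genes with a single read. Other calculations used Python 3.11.15, numpy 2.4.6, pandas 2.3.3, scipy 1.17.1 and matplotlib 3.10.9. Promoter sequences and starts are from RefSeq (GRCh38.p14), and the exon from GENCODE v44 on GRCh37.

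The members and lists were chosen with earlier results of these data known. Named are all members, at most 4 genes per list by size of the line difference among those that passed, markers, and 3 nearest genes for EPAS1, HIF1A, VHL and EGLN3. AHRR had no matching symbol. Some listed genes are not reported here by name. Alternatives were other pseudocounts, no filter, median-ratio scaling, the highest entry per symbol, no genes under 200 bp, no trend, a replicate block, 4 group means, NTC libraries alone and leaving out each library. Taking failed estimates as missing was added after the data had been seen.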

Additional observations from a re-analysis of the deposited data

How the results depend on the processing

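Depth limits the low members most, since about 196 to 374 reads stood behind ARNT in an A498 library and 190 to 385 behind HIF1A in a 786-O library, and 2 libraries a group limit the knockdown comparisons. Among the differences of the 9 genes between the lines, 168 of 171 alternative values kept direction and call, and the other 3 were ARNT2, given above. The counts of called genes in the line comparison (9150, or 8819 to 8993 when a library was left out) stayed within 1.5 times. No member was called under knockdown or in the interaction in any of 567 alternative values (lowest limma adjusted p 0.27).

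The numbers of all genes called under knockdown moved. Over both lines the count was 1, against 0 without genes under 200 bp, 19 with 4 group means and 1 to 3 without single libraries. In A498 it was 20, against 11 with a pseudocount of 1, 0 without a filter, 3 without genes under 200 bp, 13 with 4 group means and 48 to 61 without single libraries. In 786-O it was 16, against 5 without a filter, 0 without genes under 200 bp, 9 with 4 group means and 29 to 41 without single libraries. In the interaction it was 16, against 7 with a pseudocount of 0.01, 27 without a filter, 1 without genes under 200 bp and 28 to 38 without single libraries. The number of called bHLH-PAS factors was 9 without a filter, since more were tested. The cause of the other shifts was not tested.

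The replicate numbers of NTC and siRNA libraries share only a number. The deviations from group means correlated by -0.0048 in A498 and 0.0064 in 786-O, and by 0.17 and 0.023 without genes under 200 bp. A replicate block changed the counts to 9117 between the lines, 1 under knockdown over both lines, 0 in A498, 4 in 786-O and 9 in the interaction, and against the NTC library of the same number 1 member fold, that of HIF1A given above, was past the study's fold threshold.

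Members with no call reversed sign as follows. With the highest entry alone the log2 knockdown differences were -0.052 for HIF1A and 0.10 for ARNT over both lines, -0.36 for HIF1A in A498, -0.075 for VHL and 0.27 for ARNT in 786-O, and -0.33 for ARNT in the interaction. With failed estimates as missing ARNT was at 0.084 in 786-O and -0.35 in the interaction. When single libraries were left out, the values that changed sign ran over both lines from -0.026 to 0.059 for EGLN1. They ran in A498 from -0.042 to 0.14 for HIF1A, -0.00030 to 0.14 for EGLN1, -0.099 to 0.077 for ARNT2, -0.092 to 0.067 for EGLN3 and -0.21 to 0.079 for ARNT. They ran in 786-O from -0.13 to 0.046 for EGLN1, -0.26 to 0.084 for ARNT, -0.0037 to 0.084 for HIF1AN and -0.069 to 0.15 for EPAS1. They ran in the interaction from -0.15 to 0.20 for ARNT, -0.17 to 0.0067 for ARNT2, -0.049 to 0.073 for EGLN2 and -0.046 to 0.17 for EPAS1.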
